A study of Homo sapiens with 6 samples.

Results

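The mesenchymal identity markers of neuroblastoma described here are 9 genes: the transcription factors TWIST1, RUNX2 and TBX18, the cytoskeletal genes VIM and PLS3, the surface proteins CD44, PDPN and THY1, and the matrix protein TNC. They were chosen by name, and each was read by the probe set annotated to its symbol, the brightest over the 6 arrays where a gene had more than 1. All 9 were measured, among 14779 named genes on 31135 probe sets. In shGLDC99 cells PLS3 and VIM fell, 22.2% of the 9 beside 4.80% of all genes, and 0 of the 9 rose, beside 3.72%. The other 7 did not pass the threshold, a limma adjusted p under 0.05. The VIM call rested on the brighter of the probe sets annotated to it and was kept in only 1 of 6 fits that each left out 1 array.

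The comparison was made in LA1-55n, an established neuroblastoma cell line and a neuroblastic subclone of the line LA-N-1. One population carried a doxycycline-inducible (teton) hairpin against glycine decarboxylase, shGLDC99, and the other an inducible hairpin against GFP, shGFP, a protein that human cells do not make. Both received 0.5 µg/ml doxycycline for 7 days in RPMI medium with serum, and each gave 3 arrays of the Affymetrix Human Gene 2.0 ST type, lettered a, b and c. With 1 hairpin against GLDC and 1 cell line, loss of GLDC and any other action of that hairpin sequence cannot be told apart. The labels do not say whether either population was a single clone, and nothing says how the independent samples were separated, so the p-values reflect only how these samples vary, which may be technical.

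Neuroblastoma cells occur in an adrenergic state, close to sympathetic neuroblasts and held by factors such as HAND2 and GATA3, and in a mesenchymal state, close to migratory neural crest cells and held by factors such as PRRX1, the AP-1 proteins and the YAP and TAZ coactivators. Mesenchymal cells adhere strongly to their substrate, are rich in vimentin and matrix proteins and resist chemotherapy better than adrenergic cells. Neuroblastic lines such as LA1-55n are usually placed in the adrenergic class.

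The hairpin target was checked first. GLDC, which decarboxylates glycine in mitochondria, read 5.98, 5.65 and 5.93 in shGLDC99 arrays a, b and c, against 7.85, 7.90 and 7.81 in shGFP arrays a, b and c, on the log2 intensity scale. The level left in shGLDC99 cells was 24.9% of that in shGFP cells (limma adjusted p = 0.00101). Over all genes 1259, or 8.52%, changed at a limma adjusted p under 0.05 (4.80% of all genes fell and 3.72% of all genes rose), and the median difference was -0.01. With any 1 of the 6 arrays left out, 461 to 546 genes changed. Of 21 measured adrenergic genes 14 lay at or above the all-gene median, HAND2 at 8.02 and GATA3 at 9.41 among them. DBH (4.52), the enzyme that makes noradrenaline, lay below that median of 5.09.

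The levels of the 9 markers fell into 2 bands around the all-gene median. TBX18, VIM, TWIST1, PLS3 and THY1 had means over the 6 arrays of 7.07, 7.04, 6.55, 6.46 and 5.76, all above it. RUNX2, PDPN, TNC and CD44 had means of 3.54, 3.51, 2.91 and 2.83, all below it, and RUNX2, the highest of these, stood at percentile 25.8 of all genes. Probe sets differ in how strongly they bind, so these levels place a signal among the signals of the array and do not rank transcript amounts. No detection call is given with the values, so the 4 dim markers are not shown to exceed background, and fold changes of such genes may understate the true ones.

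**Figure D1:**
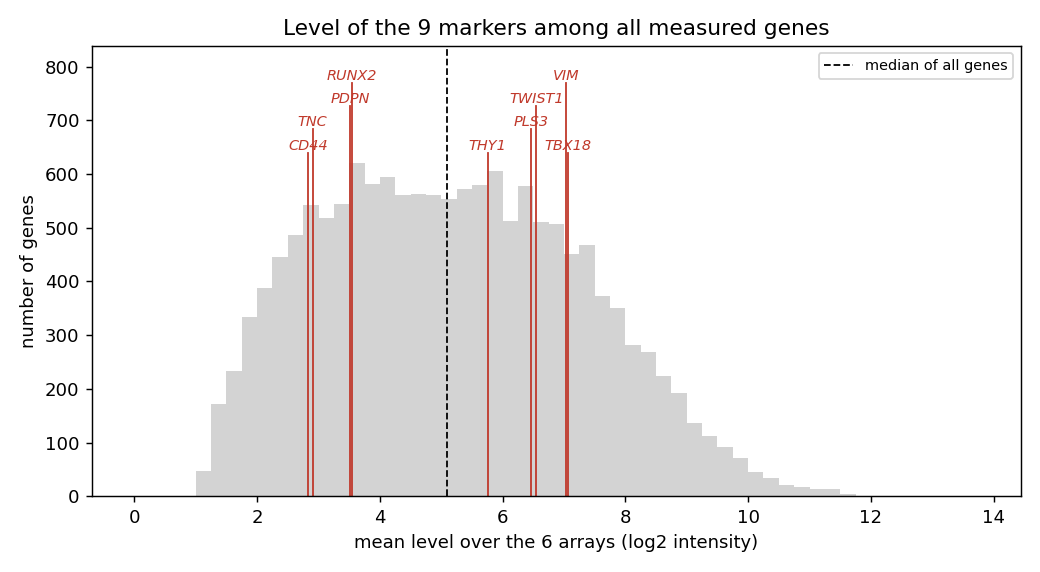
Histogram of the mean level over the 6 arrays (log2 intensity, x axis) for all 14779 genes (number of genes, y axis), with a red line at each of the 9 markers and a dashed line at the all-gene median of 5.09. CD44, TNC, PDPN and RUNX2 lie between 2.83 and 3.54, and THY1, PLS3, TWIST1, VIM and TBX18 between 5.76 and 7.07.

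Among the transcription factors, none was past the threshold. TWIST1, a basic helix-loop-helix factor of the epithelial-mesenchymal transition and of neural crest migration, read 6.48, 6.37 and 6.42 in shGLDC99 arrays a, b and c, against 6.76, 6.64 and 6.63 in shGFP arrays a, b and c. Every shGLDC99 array thus lay below every shGFP array. The difference was -0.26 ± 0.07 (SE; 95% interval -0.42 to -0.09; limma adjusted p = 0.0706). That p was 0.0222 without the dimmest 40% of genes and 0.0228 with a prior variance that follows intensity, so 2 of the alternatives tried would call it.

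TBX18, a T-box factor of mesenchymal progenitors and a member of the mesenchymal neuroblastoma signature, was the brightest of the 9 markers in its probe set signal. Its level was 7.08, 6.79 and 7.03 in shGLDC99 arrays a, b and c, against 7.31, 7.06 and 7.15 in shGFP arrays a, b and c. The groups overlapped, since shGLDC99 array a lay above shGFP array b, and array b was the lowest of both groups. A difference of -0.21 ± 0.10 (SE; 95% interval -0.46 to 0.04) was not past the threshold (limma adjusted p = 0.284), and without shGLDC99 array b it was -0.12.

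RUNX2, the Runt-domain factor of bone formation, also active in neural crest derivatives, read 3.53, 3.31 and 3.30 in shGLDC99 arrays a, b and c, against 3.49, 3.85 and 3.75 in shGFP arrays a, b and c. Array a lay above b and c in shGLDC99 cells and below b and c in shGFP cells, and the groups overlapped there. The difference was -0.32 ± 0.12 (SE; 95% interval -0.60 to -0.04; limma adjusted p = 0.153). Without shGLDC99 array a or any other single array its adjusted p stayed between 0.0849 and 0.329. RUNX2 overlaps SUPT3H in the RefSeq gene table, whose own probe set differed by 0.01 (limma adjusted p = 0.961).

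The cytoskeletal markers held both falls. PLS3, or T-plastin, bundles actin filaments in the cell cortex and in protrusions. Its level was 5.90, 5.61 and 6.05 in shGLDC99 arrays a, b and c, against 6.77, 7.24 and 7.21 in shGFP arrays a, b and c. Between the highest shGLDC99 array and the lowest shGFP array lay a clear gap, although PLS3 had the widest replicate spread of the 9, with a pooled SD of 0.243 against a median of 0.122 over all genes. PLS3 averaged 5.85 ± 0.224 in shGLDC99 cells and 7.07 ± 0.260 in shGFP cells (SD, n = 3 each). It fell by 1.22 ± 0.16 (log2 scale, SE), 2.33-fold, to 42.9% of the shGFP level (95% interval -1.61 to -0.83; limma adjusted p = 0.00962). By size of the difference it ranked 28th of all genes. The call held without each of the 6 arrays in turn (limma adjusted p 0.0198 to 0.0426).

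VIM encodes vimentin, the intermediate filament protein of mesenchymal cells. Its brighter probe set read 6.82, 6.86 and 6.89 in shGLDC99 arrays a, b and c, against 7.16, 7.27 and 7.25 in shGFP arrays a, b and c. Both groups were tight, with a pooled SD of 0.0487, and did not overlap. VIM fell by 0.37 ± 0.06 (SE), or 1.29-fold, to 77.5% of the shGFP level (95% interval -0.52 to -0.21; limma adjusted p = 0.0208). That call was lost without shGLDC99 array a, b or c or shGFP array b or c (limma adjusted p 0.0580 to 0.0749), with differences of -0.38 to -0.35, and was kept without shGFP array a (limma adjusted p = 0.0466).

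A second and dimmer probe set is annotated to VIM. It read 4.79, 5.06 and 4.84 in shGLDC99 arrays a, b and c, against 4.84, 5.02 and 4.98 in shGFP arrays a, b and c. These groups overlapped and the difference was -0.05 ± 0.10 (SE; limma adjusted p = 0.849 over all probe sets). The probe sets annotated to VIM thus gave unlike results, and they need not read the same transcript. With both averaged, the difference was -0.21 (limma adjusted p = 0.144), a value that tests VIM only if both probe sets read VIM. The gap between the probe sets was 1.80 to 2.05 in shGLDC99 arrays and 2.25 to 2.31 in shGFP arrays, which do not overlap (exact two-sided permutation test, p = 0.1, the smallest that 3 against 3 allows). VIM-AS1, an antisense RNA, overlaps the start of VIM in the RefSeq gene table, and which transcript the dimmer probe set reads was not determined.

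**Figure D2:**
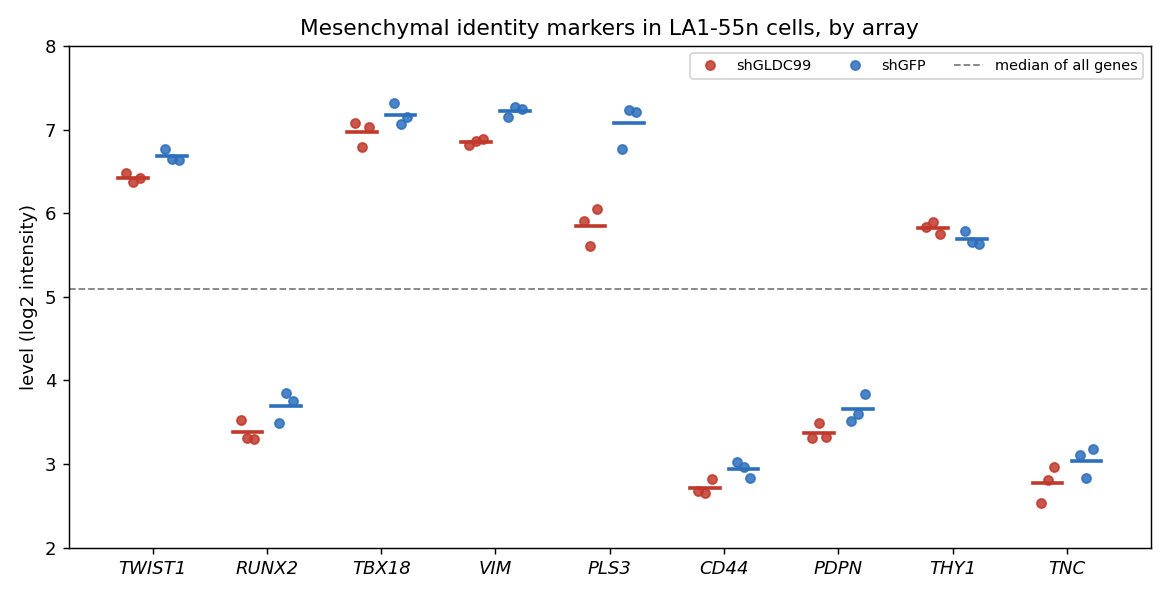
Level (log2 intensity, y axis) of each of the 9 markers (x axis) in every array, with shGLDC99 arrays in red left of shGFP arrays in blue, a short bar at each group mean and a dashed line at the all-gene median of 5.09. The PLS3 points of shGLDC99 cells (5.61 to 6.05) lie apart from those of shGFP cells (6.77 to 7.24), and the gap between the group means is wider than for any other of the 9 markers.

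The RefSeq promoter windows of the 2 fallen markers are shown to set out which motif letters lie at their starts. Shared control of the 2 genes was not tested. Each runs 5′ to 3′ from 250 bases before to 50 bases after a transcript start in GRCh38.p14. Capitals mark matches, on either strand, to the E-box CANNTG, the core bound by TWIST1 and other helix-loop-helix factors, to the RUNX motif TGTGGT, and to the T-box motif GGTGTGA. PLS3 has an upstream start (chrX:115560924-115561223, plus strand) and a downstream start (chrX:115593301-115593600, plus strand) in the table, and VIM has 1 (chr10:17227991-17228290, plus strand).
PLS3 upstream start: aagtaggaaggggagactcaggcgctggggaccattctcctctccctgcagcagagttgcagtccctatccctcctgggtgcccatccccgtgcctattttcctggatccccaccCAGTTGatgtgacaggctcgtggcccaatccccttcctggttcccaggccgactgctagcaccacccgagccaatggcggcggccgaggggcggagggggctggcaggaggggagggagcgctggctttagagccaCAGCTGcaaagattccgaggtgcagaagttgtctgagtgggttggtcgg
PLS3 downstream start: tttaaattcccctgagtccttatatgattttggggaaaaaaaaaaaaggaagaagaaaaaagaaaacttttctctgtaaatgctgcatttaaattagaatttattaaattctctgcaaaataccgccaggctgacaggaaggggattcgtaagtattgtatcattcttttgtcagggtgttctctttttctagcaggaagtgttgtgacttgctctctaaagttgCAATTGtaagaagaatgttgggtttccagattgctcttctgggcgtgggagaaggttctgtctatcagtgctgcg
VIM: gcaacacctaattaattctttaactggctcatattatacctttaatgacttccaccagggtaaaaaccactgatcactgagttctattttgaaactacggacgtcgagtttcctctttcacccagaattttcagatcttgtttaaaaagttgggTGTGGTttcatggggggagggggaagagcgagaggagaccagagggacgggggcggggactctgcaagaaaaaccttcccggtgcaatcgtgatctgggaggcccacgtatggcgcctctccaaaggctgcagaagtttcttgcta

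The upstream PLS3 window held 2 E-boxes, CAGTTG at -135 and CAGCTG at 2, with the first transcribed base as 1, and the downstream window held 1, CAATTG at -25. The VIM window held 0 E-boxes and 1 RUNX motif, at -96. An E-box stood in 68.7% of all 35116 promoter windows of this length, a RUNX motif in 13.1% and a T-box motif in 3.45%. A GC box (GGGCGG) was found in the upstream PLS3 window and in the VIM window, as in 45.0% of all windows. The upstream PLS3 window had a GC content of 63.3%, the downstream window 37.7% and the VIM window 48.0%, against a median of 58.7%. Windows were found for 7 of the 9 markers. The first RUNX2 window (chr6:45328080-45328379) held 4 RUNX motifs, 2 of which overlap an E-box, at -85 and at 29. The second RUNX2 window (chr6:45422025-45422324) held 0 RUNX motifs and 3 E-boxes. A letter match is not a measured binding site.

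Of the surface markers, CD44 and PDPN were dim and not past the threshold. CD44, the hyaluronan receptor, read 2.674, 2.648 and 2.825 in shGLDC99 arrays a, b and c, against 3.025, 2.959 and 2.835 in shGFP arrays a, b and c. The groups just failed to overlap, with the c arrays of both almost level. The CD44 difference was -0.22 ± 0.08 (SE; 95% interval -0.42 to -0.03; limma adjusted p = 0.156).

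PDPN, podoplanin, a mucin-type glycoprotein that binds ezrin and moesin at the membrane, read 3.31, 3.49 and 3.33 in shGLDC99 arrays a, b and c, against 3.51, 3.60 and 3.84 in shGFP arrays a, b and c. The highest shGLDC99 array, b, lay just under the lowest shGFP array, a. Its difference was -0.28 ± 0.10 (SE; 95% interval -0.53 to -0.03; limma adjusted p = 0.162), and without shGFP array c it was -0.18.

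THY1, or CD90, is a GPI-anchored glycoprotein found on mesenchymal stem cells, fibroblasts and neurons alike. It was the only 1 of the 9 with a higher mean in shGLDC99 cells, at 5.84, 5.89 and 5.75 in shGLDC99 arrays a, b and c, against 5.78, 5.65 and 5.63 in shGFP arrays a, b and c. The groups overlapped, since shGLDC99 array c lay below shGFP array a, and the difference of 0.14 ± 0.07 (SE; 95% interval -0.04 to 0.31) was not past the threshold (limma adjusted p = 0.325).

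TNC, tenascin-C, is a matrix glycoprotein of the neural crest path and of tumour stroma. Its level was 2.53, 2.81 and 2.97 in shGLDC99 arrays a, b and c, against 3.11, 2.83 and 3.18 in shGFP arrays a, b and c. The groups overlapped at shGFP array b. The difference of -0.27 ± 0.14 (SE; 95% interval -0.60 to 0.07) was not past the threshold (limma adjusted p = 0.307), and without shGLDC99 array a it was -0.15.

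**Figure D3:**
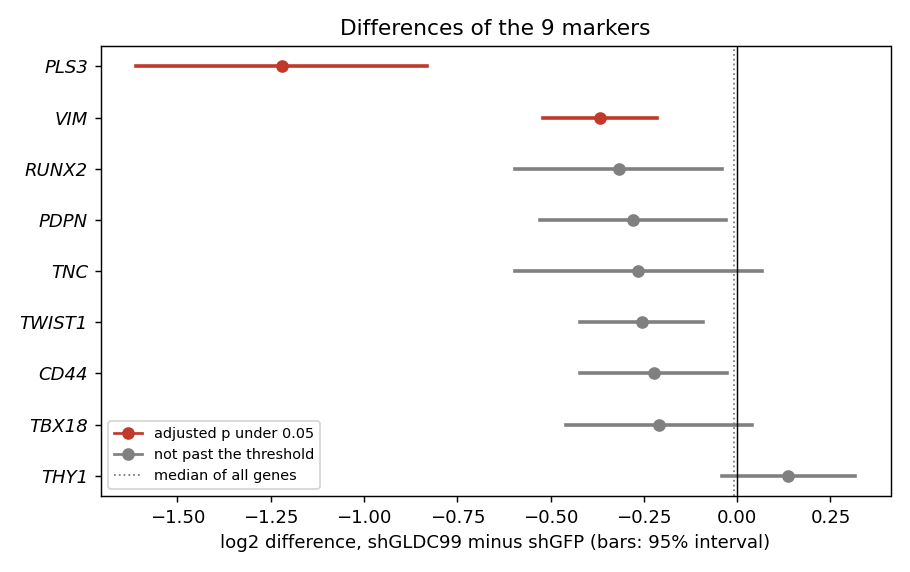
Log2 difference of each of the 9 markers (shGLDC99 minus shGFP, x axis) with its 95% interval, from limma, in red where the adjusted p was under 0.05 and grey otherwise. PLS3 lies at -1.22, VIM at -0.37, the next 6 between -0.32 and -0.21, and THY1 at 0.14.

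Set side by side, 2 of 9 markers, or 22.2%, fell, beside 4.80% of all genes, and 0 rose, beside 3.72%. At an unadjusted limma p under 0.05, 6 of the 9 were lower, beside 13.2% of all genes, and 0 were higher, beside 11.1%. Lower means in shGLDC99 cells were found for 8 of the 9, beside 51.6% of all genes, and the median difference was -0.27, beside -0.01. In 5 of the 9 (PLS3, VIM, TWIST1, CD44 and PDPN) all shGLDC99 arrays lay below all shGFP arrays, as for 16.3% of all genes, and in 0 they all lay above, as for 14.5%. Those 5 each gave an exact two-sided permutation p of 0.1, the smallest that 3 against 3 allows, and RUNX2, TBX18, TNC and THY1 each gave 0.2. Without PLS3 the markers differed by at most 0.37 in size. These counts describe 9 genes picked by name with earlier results known. Fewer cells in a mesenchymal state and less RNA of these genes per cell cannot be told apart in bulk RNA.

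**Figure D4:**
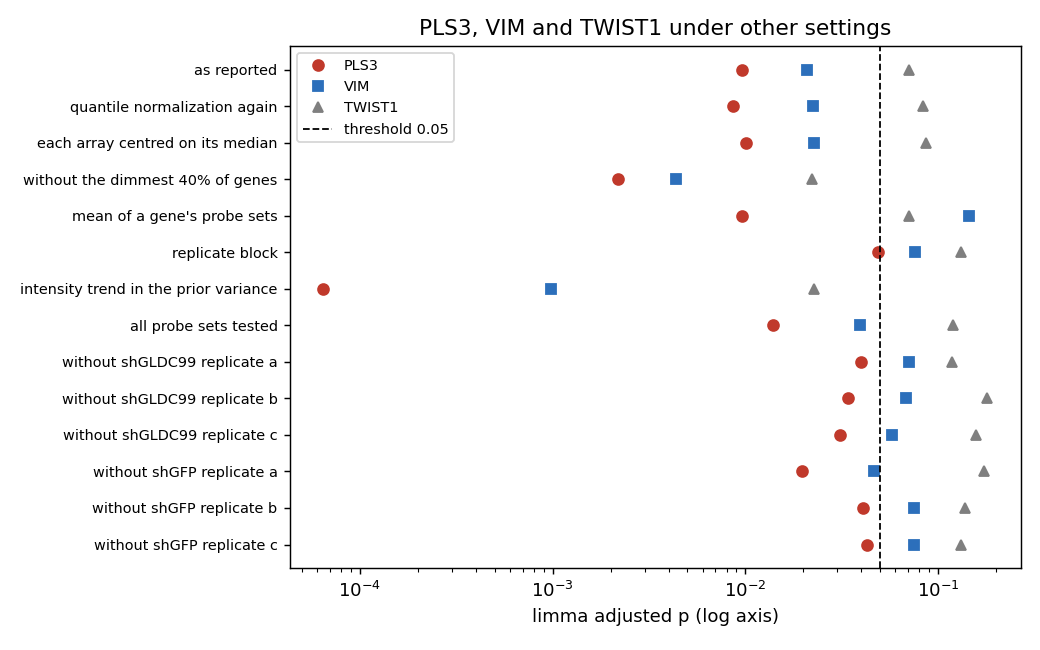
Limma adjusted p (log x axis) of PLS3 (red circles), VIM (blue squares) and TWIST1 (grey triangles) as reported and under 13 other settings (rows), with a dashed line at 0.05. PLS3 stays at or below 0.0489 in every row, VIM lies between 0.000985 and 0.144, and TWIST1 passes in 2 rows.

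The genes with the profiles nearest to PLS3 over the 6 arrays, by Euclidean distance between gene-centred values among 7389 other genes at or above the median level, were CABLES2 (distance 0.380, Pearson r 0.98), SHISA3 (0.422, r 0.99) and AKNAD1 (0.439, r 0.96). Those differences were -1.07 for CABLES2, -0.97 for SHISA3 and -1.27 for AKNAD1. Nearest to VIM were JPH1 (distance 0.0293), TGS1 (0.0541) and NPTX2 (0.0576), with Pearson r of 0.99 or higher over the 6 arrays. All points come from the same 6 arrays and most of each likeness is the difference between the hairpins.

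Other mesenchymal genes did not share 1 direction. Of 68 listed factors, surface and matrix genes besides the 9, 40 were measured. Of these 5 fell, 4 rose and 31 did not pass the threshold, with 20 lower and 20 higher means and a median difference of 0.02. The falls were 12.5% of the 40, beside 4.80% of all genes. In either direction 22.5% changed, beside 8.52% of all genes and 22.2% of the 9 markers. With 1 array left out at a time, 3 to 5 fell and 1 to 3 rose. The 9 markers and these 40 were both picked by name, and no test of a difference between them was made.

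Of 22 measured mesenchymal factors, 3 fell and 2 rose, or 22.7% changed, beside 8.52% of all genes. The coactivator YAP1 averaged 3.82 in shGLDC99 cells and 4.79 in shGFP cells, at a dim level (percentile 38.0 of all genes). The TAZ gene, WWTR1, named after its value was seen, averaged 4.13 in shGLDC99 cells and 4.16 in shGFP cells. Its difference of -0.03 was not past the threshold (limma adjusted p = 0.925). NOTCH2, a Notch receptor of the mesenchymal signature, averaged 6.41 in shGLDC99 cells and 7.01 in shGFP cells, and both YAP1 and NOTCH2 kept their calls without each array. NOTCH3 fell by 0.83, a call lost without shGLDC99 array b or c or shGFP array b or c (limma adjusted p up to 0.0685). FOSL2, an AP-1 subunit, rose by 0.48, a call kept only without shGLDC99 array c (limma adjusted p up to 0.0943 without the others). The other rise, named after its value was seen, was IRF2 (0.95), kept only without shGFP array c. PRRX1, a homeobox factor that can set the mesenchymal state and was named after its value was seen, averaged 7.23 in shGLDC99 cells and 7.25 in shGFP cells, a difference of -0.02 ± 0.08 (SE; limma adjusted p = 0.920).

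Of 18 measured surface and matrix genes, 2 fell and 2 rose, or 22.2% changed, beside 8.52% of all genes. Fibronectin, FN1, averaged 5.98 in shGLDC99 cells and 7.41 in shGFP cells and kept its call without each array. LOX, which cross-links collagen, fell by 0.42, a call lost without shGLDC99 array b or c or shGFP array a or b (limma adjusted p up to 0.0539). The metalloproteinase inhibitor TIMP3 rose by 0.92, lost without shGLDC99 array a, b or c or shGFP array a (limma adjusted p up to 0.0667). LUM, lumican, rose by 0.52 from dim signals (percentile 29.2 of all genes), and its call was lost without shGFP array b (limma adjusted p = 0.0522).

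Around TWIST1, 11 of 16 listed epithelial-mesenchymal transition factors and helix-loop-helix partners were measured, of which 1 fell and 0 rose. This was 9.09% changed, near the 8.52% of all genes. TCF3, an E protein that pairs with TWIST1, averaged 7.79 in shGLDC99 cells and 8.13 in shGFP cells (difference -0.34, limma adjusted p = 0.0332), and its call was lost without any 1 array. Differences were -0.11 for TCF12, 0.13 for ZEB1 and -0.11 for ZEB2, none past the threshold. TWIST2, the closest relative of TWIST1, was dim and differed by -0.05 (limma adjusted p = 0.903).

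Around RUNX2, 7 of 15 listed relatives, partners and bone genes were measured, of which 1 fell and 0 rose. This was 14.3% changed, beside 8.52% of all genes. DLX5, a homeobox factor that acts upstream of RUNX2 in bone, averaged 4.36 in shGLDC99 cells and 4.94 in shGFP cells and fell by 0.58, a call lost without shGLDC99 array a or c or shGFP array a or b (limma adjusted p up to 0.0667). RUNX1 and RUNX3 differed by 0.11 and 0.17 and SPP1, osteopontin, by -0.44, none past the threshold (limma adjusted p 0.196 or higher).

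In the T-box family 14 of 16 listed relatives of TBX18 were measured, of which 2 fell and 1 rose. This was 21.4% changed, beside 8.52% of all genes. TBX20 averaged 9.16 in shGLDC99 cells and 10.02 in shGFP cells and fell by 0.86, with the call kept without each array. TBX2 fell by 0.60 (lost without shGLDC99 array b or shGFP array b or c, limma adjusted p up to 0.0548). The dim TBX1 rose by 0.40, a call lost without any 1 array (limma adjusted p 0.0569 to 0.116), and TBX22 differed by -0.35 (limma adjusted p = 0.0510).

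Beside PLS3, 17 of 34 listed actin bundling and stress fibre genes were measured, with 1 fall and 0 rises. This was 5.88% changed, beside 8.52% of all genes. CNN2, a calponin that stabilises actin filaments, averaged 7.99 in shGLDC99 cells and 8.68 in shGFP cells and fell by 0.69, with the call kept without each array. The plastin relatives gave smaller differences than PLS3: LCP1, L-plastin, differed by -0.50 (limma adjusted p = 0.0504) at a dim level and PLS1, the fimbrin of microvilli, by -0.13 (limma adjusted p = 0.381). ZYX and CALD1 differed by -0.24 and -0.19, not past the threshold. Under a prior variance that follows intensity 3 of the 17 fell.

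Beside VIM, 11 of 16 listed intermediate filament genes were measured, of which 2 fell and 1 rose. This was 27.3% changed, beside 8.52% of all genes. PRPH, peripherin, the filament of peripheral neurons, averaged 6.59 in shGLDC99 cells and 5.88 in shGFP cells and rose by 0.71. The nuclear lamins LMNB2 and LMNB1 fell by 0.72 and 0.47. The calls of PRPH, LMNB2 and LMNB1 were kept without each array. DES, desmin, differed by 0.34 (limma adjusted p = 0.0635), and NES, nestin, which copolymerises with vimentin, by -0.26 (limma adjusted p = 0.0680), a gene named after its value was seen to place vimentin beside its partner.

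Around CD44 and PDPN, 17 of 24 listed partners and hyaluronan genes were measured, with 2 falls and 0 rises. This was 11.8% changed, beside 8.52% of all genes. VCAN, versican, a proteoglycan that binds hyaluronan, averaged 7.00 in shGLDC99 cells and 8.15 in shGFP cells and fell by 1.14, with the call kept without each array. HAS2, a hyaluronan synthase, fell by 0.40 at a dim level, averaging 2.29 in shGLDC99 cells and 2.68 in shGFP cells, a call lost without any 1 array (limma adjusted p 0.0541 to 0.0863). HMMR, another hyaluronan receptor that also acts in the spindle, differed by -0.29 (limma adjusted p = 0.0537). ESRP1, a splicing factor that favours the epithelial forms of CD44, differed by 0.37 at a dim level (limma adjusted p = 0.123).

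Around TNC and THY1, 6 of 21 listed receptors and tenascins were measured, and 0 of them were integrins. Of the 6, 1 fell and 0 rose, or 16.7% changed, beside 8.52% of all genes. EGFR, a receptor that tenascin-C repeats can engage, averaged 6.01 in shGLDC99 cells and 6.65 in shGFP cells and fell by 0.64, a call lost without shGLDC99 array c or shGFP array b or c (limma adjusted p up to 0.0575). The tenascins TNXB and TNN differed by 0.15 and -0.05 and ANXA2 by 0.24, none past the threshold.

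**Figure D5:**
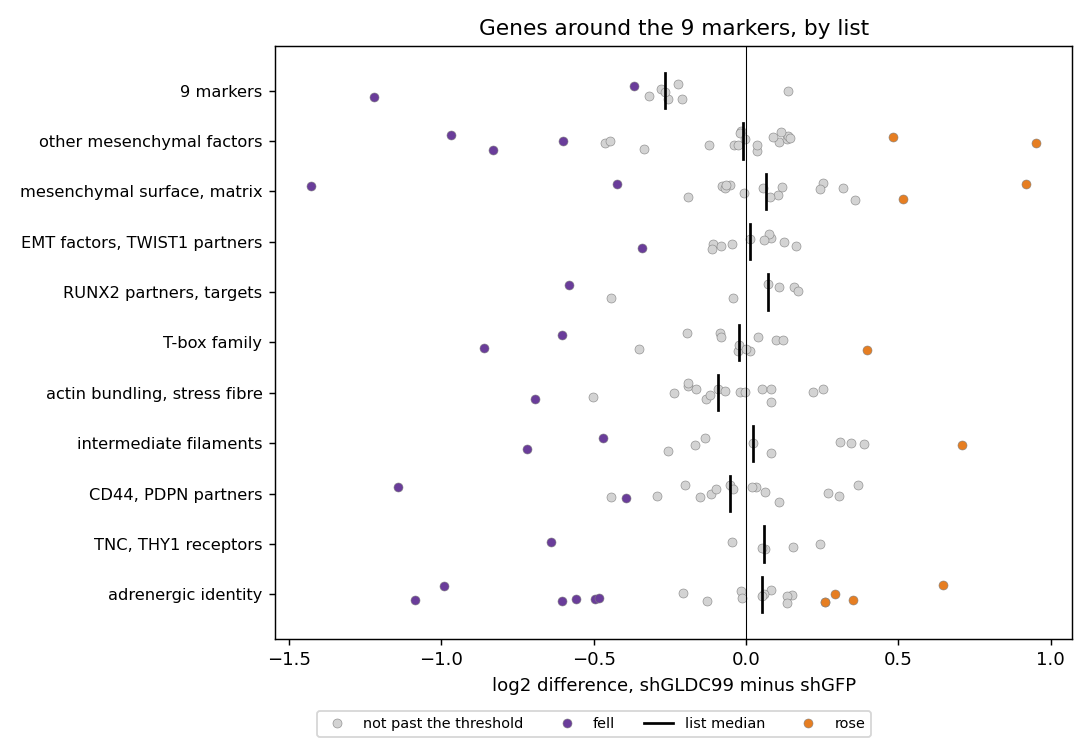
Log2 difference (shGLDC99 minus shGFP, x axis) of the 9 markers and of every measured gene of 10 lists around them (rows), each gene a point, purple where it fell, orange where it rose and grey where it was not past the threshold, with a bar at each list median. The median of the 9 markers is -0.27 and those of the other lists lie between -0.09 and 0.07; points are spread vertically at random.

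The adrenergic list moved in both directions as well. Of 21 measured genes, 6 fell and 4 rose, with a median difference of 0.05. The falls were 28.6% of the list, beside 4.80% of all genes and 22.2% of the 9 markers. In either direction 47.6% changed, beside 8.52% of all genes. ISL1 and LMO3 fell by 1.09 and 0.99 and kept their calls without each array, GATA2 fell by 0.56 (lost without shGFP array b or c, limma adjusted p up to 0.0509), and KLF7, named after its value was seen as the first of the rises, rose by 0.35 (lost without any 1 array). GATA3 fell by 0.48, a call kept only without shGFP array a (limma adjusted p up to 0.0625 without the others). HAND2 differed by 0.08, not past the threshold (limma adjusted p = 0.455). TBX2, given above with the T-box family, is also on this list. With 1 array left out, 2 to 5 adrenergic genes fell and 0 or 1 rose.

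Markers of cell types other than neuroblasts were mostly dim. Of the 4 measured fibroblast markers 1, LUM, rose and 0 fell, or 25% changed, beside 8.52% of all genes. Their mean level was 3.53 to 3.65 in shGLDC99 arrays, against 3.37 to 3.52 in shGFP arrays. DCN, decorin, which defines fibroblasts, lay at 1.73 in shGLDC99 cells and 1.67 in shGFP cells, at percentile 2.68 of all genes. The fibroblast marker FBLN1 (percentile 69.5), the leukocyte marker CD68 (60.1) and the endothelial marker ESAM (50.4) lay above the all-gene median. Of 6 Schwann cell, 5 endothelial, 6 leukocyte and 8 epithelial markers 0 changed (limma adjusted p 0.0873 or higher; 4 of the 25 at an unadjusted p under 0.05, beside 24.4% of all genes), and their mean levels were 3.55 to 4.12 in shGLDC99 arrays and 3.52 to 4.28 in shGFP arrays. SOX10 and S100B, which define Schwann cells, lay at 4.66 and 3.60 in shGLDC99 cells and at 4.68 and 3.64 in shGFP cells. The part of such cells in the marker differences was not tested.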

How the data were processed

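Affymetrix Human Gene 2.0 ST arrays were run on RNA of 3 shGLDC99 and 3 shGFP samples. The authors deposited 1 value per probe set and array, taken here as log2 intensity. No source gives the base of the logarithm. It was inferred from the largest value, 13.28, which a natural log of 16-bit scanner intensities (at most 11.09) could not reach, and every fold rests on it. The software was Partek, per the submitters' processing notes. How the authors corrected background, normalized and summarised is not given in the sources used here. The medians of the 6 arrays ran from 4.28 to 4.33, and the values were used as they stand. Precision is limited by having 3 arrays a group.

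Of 31135 probe sets, 15098 carried 1 gene symbol, 0 carried several and 16037 had no name here. All 15098 matched the RefSeq gene table by Entrez ID, with 0 symbols changed. Each of the 14779 genes was represented by its brightest probe set (256 genes had more than 1), with no filter on dim genes. Differences are shGLDC99 minus shGFP, tested with lmFit and eBayes of limma 3.58.1 (R 4.3.3), without covariates, and adjusted over all genes (Benjamini-Hochberg). "Rose" and "fell" mean an adjusted p under 0.05. Intervals are unadjusted 95% intervals of that model.

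The markers, the gene lists, written from general knowledge, and the tests were chosen with earlier results of these data known. The rule for named genes took the 9 markers, GLDC, close relatives of the markers, up to 4 genes per list with the smallest adjusted p, and for the 2 called markers with the largest differences the 3 genes of nearest profile. The lists share some members. Promoter windows are from RefSeq (GRCh38.p14), since no build is stated for the array. Nothing says that the replicate letters pair the arrays, so no pairing was used in the reported fit. Deviations from the group means of same-lettered arrays correlated at -0.01, 0.02 and -0.00 for a, b and c. Such correlations cannot show whether same-lettered samples were handled together. The alternatives tried were 8 other settings and leaving out each of the 6 arrays.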

Additional observations from a re-analysis of the deposited data

How the results depend on the processing

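PLS3 fell under every one of the 8 other settings and 6 left-out arrays, with differences of -1.37 to -1.10 and a largest limma adjusted p of 0.0489, with the replicate block, that is, with the replicate letter as a block. Of the 9 markers, 2 fell as reported, 3 without the dimmest 40% of genes or with a prior variance that follows intensity (TWIST1 added), and 1 (PLS3) with a gene's probe sets averaged, with the replicate block (VIM limma adjusted p = 0.0756) or at an adjusted p under 0.01; with 1 array left out, 1 or 2 fell. The markers gave 0 rises under all of these, and no marker changed sign. For VIM, the averaged fit tests that gene only if both probe sets annotated to it read VIM. Among the 40 other mesenchymal genes 5 falls and 4 rises became 1 and 0 with the replicate block and likewise 1 and 0 at an adjusted p under 0.01; with 1 array left out, 3 to 5 fell and 1 to 3 rose. Of the 32 called genes among the 9 markers and all listed genes, 8 kept their calls with the replicate block (PLS3, FN1, VCAN, CNN2, LMNB2, TBX20, ISL1 and LMO3) and 24 lost them, YAP1 (limma adjusted p = 0.0667), NOTCH2 (0.0569), PRPH (0.0613) and LMNB1 (0.0568) among them. Over all genes 1259 changed, against 2221 without the dimmest 40% of genes (8867 tested), 229 with the replicate block, 2438 with the intensity-dependent prior, 275 at an adjusted p under 0.01 and 461 to 546 with 1 array left out. Fewer arrays leave fewer degrees of freedom, and the block removes some too; why the other settings differ was not tested. RUNX2, CD44, TNC and PDPN are among the dimmest 40% of genes and were not tested without them. The signal over background is not given, which limits what can be said of those 4.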
